A study of Mus musculus with 4 samples.

Results

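The genes described here are 9 receptors that let blood stem and progenitor cells find and hold their place in the bone marrow: Cxcr4, Itga4, Itga5, Itga6, Itgb1, Itgb2, Itgal, Cd44 and Selplg. They were taken by name from the 45232 gene rows of the count files. All 9 passed the filter on low counts that left 15320 genes for testing. The RNA came from LSK cells, a marrow fraction sorted as Lin-, Kit+ and Sca-1+ in which stem cells and early progenitors are found. They were GFP+ and were collected 3 months after GFP+ long-term haematopoietic stem cells had been transplanted. In the miR-99 KD group the transplanted cells carried a knockdown of the microRNA miR-99, and in the Scr group a scrambled control. Each group had 2 mice and 2 libraries, numbered as in the labels, while the way the knockdown was made, the strain and the age of the mice were not given in the sources used here.

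Cxcr4 is the receptor for the chemokine Cxcl12, which marrow stroma makes and which draws transplanted stem cells in and keeps them there. Integrins are pairs of an alpha and a beta chain at the cell surface that grip matrix or other cells once they are switched to the active form from inside. Itgb1 pairs with Itga4 to bind Vcam1 and fibronectin, with Itga5 to bind fibronectin and with Itga6 to bind laminin. Itgb2 pairs with Itgal to form LFA-1, which binds Icam1. Cd44 binds hyaluronan, and Selplg encodes PSGL-1, a mucin that selectins hold on to when cells roll along vessel walls.

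A microRNA lowers messages that carry a match to its seed, bases 2 to 8. The mature members of the miR-99 family are shown because they share 1 seed, in capitals, and would therefore read the same sites (RefSeq, GRCm38.p6).
mmu-miR-99a-5p: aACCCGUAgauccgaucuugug
mmu-miR-99b-5p: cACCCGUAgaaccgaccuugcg
mmu-miR-100-5p: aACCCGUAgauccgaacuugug
The match to this seed, TACGGGT, was absent from the longest annotated 3′ untranslated region of all 9 genes, and so was the shorter match to bases 2 to 7, ACGGGT. The regions searched ran from 443 bases in Selplg to 6508 bases in Itga4, on the sense strand only. Among the 12817 tested genes with such a region, 1.4% held the longer match and 6.91% the shorter one. Of the selectins, the partners of PSGL-1, Selp held neither match. Sele, the endothelial selectin, held the longer match, shown here with its surroundings.
Sele 3′ untranslated region (chromosome 1, GENCODE M21 transcript, sense strand): aggagtgtcatTACGGGTacaaggtgcag
Sele had 33 and 0 counts in the miR-99 KD libraries and 12 and 26 in the Scr libraries, so that the groups overlapped.

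The libraries held 27295197 to 32350590 gene counts each. The mature microRNA is too short for these libraries, so its own level was not measured here. Its host transcript Mir99ahg had 5.0 and 7.34 CPM (read counts scaled to a fixed library size, with TMM factors) in miR-99 KD, against 11.9 and 14.1 in Scr, and neither edgeR (adjusted p 0.248) nor DESeq2 (0.0725) called it. The host transcript of miR-99b, Spaca6, was below 0.5 CPM in every library, with an edgeR adjusted p of 0.677. The quasi-likelihood test of edgeR, adjusted by Benjamini-Hochberg over all 15320 genes, called 0 of them at an adjusted p of 0.05. The count was 2390 genes, or 15.6%, at an unadjusted p under 0.05, of which 9.63% of all genes lay lower and 5.97% higher in miR-99 KD. DESeq2 called 896 genes, 638 lower and 258 higher in miR-99 KD, or 4.16% and 1.68% of all genes. Of the sort markers, Kit had 670 and 774 CPM in miR-99 KD, against 1149 and 1280 in Scr, and DESeq2 called it lower at an adjusted p of 0.000285 while edgeR gave 0.213. For Ly6a, the gene of Sca-1, the values were 12.4 and 22.3 CPM in miR-99 KD, against 46.5 and 22.8 in Scr. With 2 libraries against 2, no exact permutation test of a single value can give a two-sided p below 0.333.

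Of the 9 genes, Itga6 and Selplg had both miR-99 KD values below both Scr values, Cxcr4 and Cd44 had both above, and the other 5 overlapped. That is 44.4% of the genes without overlap, against 50.5% of all genes tested (26% below and 24.5% above). edgeR called 0 of the 9 at an adjusted p of 0.05, where it called 0% of all genes. It placed Itga6 (lower), Cd44 and Cxcr4 (both higher) at an unadjusted p under 0.05, 3 of 9 or 33.3% against 15.6% of all genes, where 9.63% were lower and 5.97% higher. DESeq2 called 2, Itga6 lower and Cd44 higher, or 22.2% against 5.85% of all genes, where 4.16% were called lower and 1.68% higher. The median log2 difference, miR-99 KD minus Scr, was 0.11 over the 9 genes and 0.02 over all genes. These counts moved with the libraries used. Without miR-99 KD 1, 8 of the 9 did not overlap, or 88.9% against 81.9% of all genes. Without Scr 2, 7 did not, or 77.8% against 68.6%. Without miR-99 KD 2, 6 did not, or 66.7% against 77.5%. Without Scr 1, 5 did not, or 55.6% against 72.5%. At an unadjusted edgeR p under 0.05 there were 6 of the 9 without miR-99 KD 1, where 26.3% of all genes passed. There was 1 without Scr 1, where 7.15% passed, and 1 without Scr 2, where 4.73% passed. edgeR called 2 of the 9 when miR-99 KD 1 was left out (6.15% of all genes) and 2 when miR-99 KD 2 was left out (2.66%). DESeq2 called 1 without Scr 1 (0.809% of all genes) and 0 without Scr 2 (0.163%). A fit with 1 library left in a group assumes that this library varies like those of the other group.

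**Figure D1:**
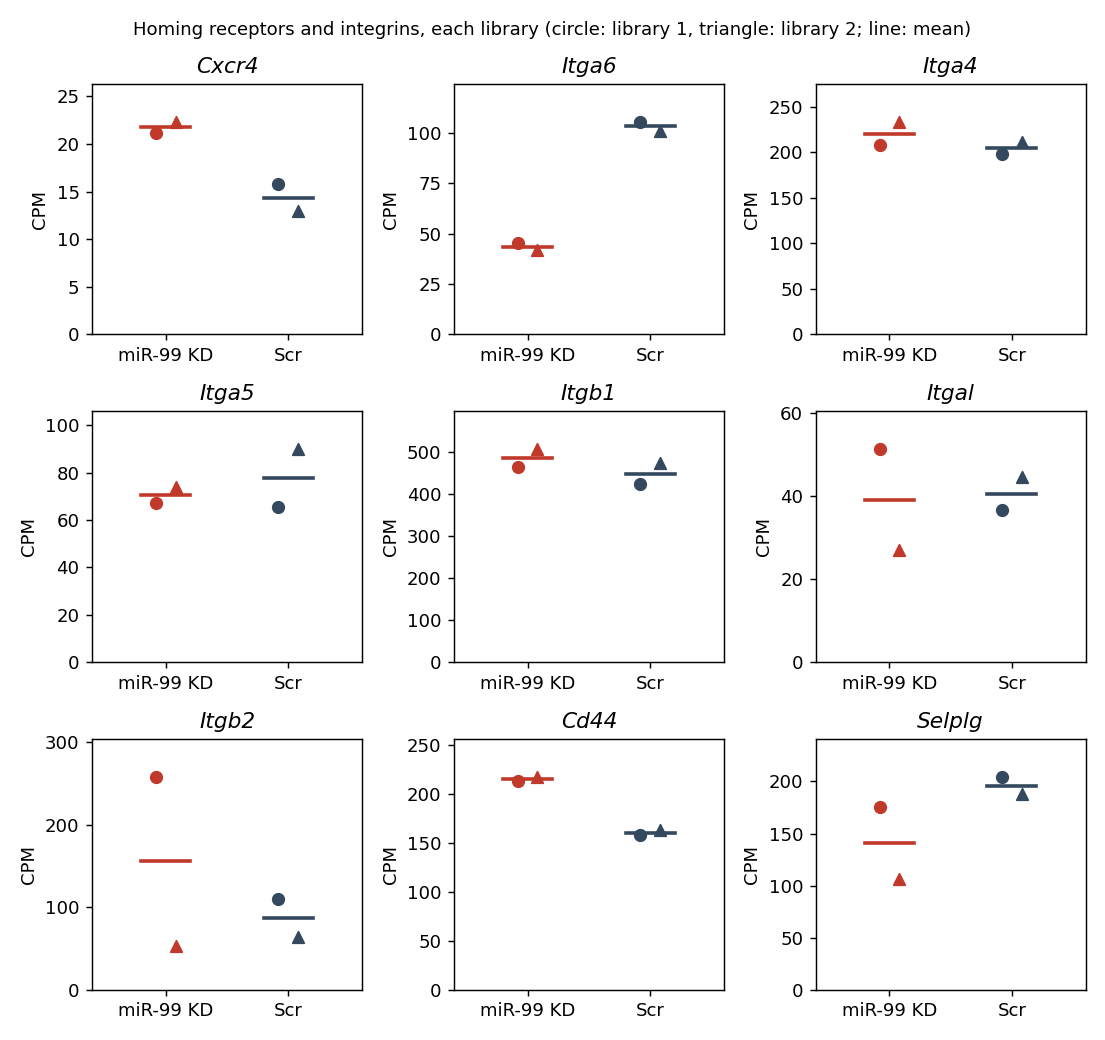
CPM of each of the 9 genes (vertical axes, from 0) in the miR-99 KD and Scr libraries, with library 1 as a circle, library 2 as a triangle and the group mean as a line. Itga6 had 45.4 and 41.8 CPM in miR-99 KD, far below 106 and 101 in Scr, while the miR-99 KD libraries of Itgb2 lay above and below both Scr libraries.

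Cxcr4 (ENSMUSG00000045382, chromosome 1) was higher in both miR-99 KD libraries. It had 559 and 593 counts in miR-99 KD, or 21.2 and 22.3 CPM, against 529 and 377 counts in Scr, or 15.8 and 12.9 CPM. The lowest miR-99 KD library lay above the highest Scr library by more than the 2 miR-99 KD libraries differed from each other. The group means were 21.8 ± 0.81 CPM in miR-99 KD and 14.4 ± 2.0 in Scr (SD, n = 2 each). This is a log2 difference of 0.60 ± 0.22 (SE), a fold of 1.51, with an edgeR adjusted p of 0.300 and a DESeq2 adjusted p of 0.187. It was 0.44 without Scr 2 and 0.72 without Scr 1, and neither tool called it in any fit that left out a library. As a share of all tested genes, 9.78% had a log2 difference as high or higher. Some erythroid and B cell markers differed with the groups. Of 12 erythroid markers 7 lay above Scr without overlap and 0 below, or 58.3% above, against 24.5% of all genes. DESeq2 called 4 of them higher, or 33.3% against 1.68% of all genes, and none was at 0. Their summed level was 7538 and 4437 CPM in miR-99 KD, against 5345 and 2946 in Scr, so that the sums overlapped. Of 10 B cell markers 5 lay above without overlap and 0 below, or 50% above. DESeq2 called 3 of the 10 higher, or 30% against 1.68% of all genes. Their summed level was 319 and 93.4 CPM in miR-99 KD, against 92.4 and 42.4 in Scr, and none was at 0. The part of either list in the levels of Cxcr4 and Cd44 was not tested.

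The genes whose pattern over the 4 libraries lay nearest to that of Cxcr4, by Euclidean distance of log2 CPM centred on each gene's mean, were Gm11713, Dnajb7 and Ska1. Their distances were 0.048, 0.070 and 0.076, and 179 genes lay within 0.2, so this likeness is common. Ska1, a protein of the spindle and kinetochore, had 53.1 ± 0.38 CPM in miR-99 KD and 36.1 ± 5.3 in Scr (SD, n = 2 each). Gm11713 and Dnajb7 were below 1 CPM in every library.

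The laminin-binding chain Itga6 (ENSMUSG00000027111, chromosome 2) showed the widest separation of the 9. It had 1197 and 1111 counts in miR-99 KD, or 45.4 and 41.8 CPM, against 3533 and 2946 counts in Scr, or 106 and 101 CPM. The libraries within each group were close, and the groups lay far apart. The means were 43.6 ± 2.5 CPM in miR-99 KD and 103 ± 3.1 in Scr (SD, n = 2 each). The log2 difference was -1.25 ± 0.14 (SE), 2.37-fold lower in miR-99 KD. Itga6 ranked 11 of 15320 by edgeR p, with an unadjusted p of 2.5e-04 and an adjusted p of 0.191. DESeq2 called it lower with an adjusted p of 1.4e-09. Of all genes tested, 5.80% had a log2 difference as low or lower.

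The difference in Itga6 kept its size without each library, between -1.19 (miR-99 KD 2 left out) and -1.31 (miR-99 KD 1 left out), but its call did not. edgeR called it when miR-99 KD 1 (adjusted p 0.0186) or miR-99 KD 2 (adjusted p 0.0291) was left out. It did not call it without Scr 1, at 0.694, or without Scr 2, at 0.919. DESeq2 called it in 3 of these 4 fits and missed it without Scr 2, at an adjusted p of 0.0569. Stem cell markers differed in the same direction. Of 12 such markers, 8 lay below Scr without overlap in miR-99 KD and 1 above, or 66.7% and 8.33%, against 26% and 24.5% of all genes. DESeq2 called 6 of the 12 lower, or 50% against 4.16%. Their summed level was 439 and 574 CPM in miR-99 KD, against 1046 and 901 in Scr, and none of the 12 was at 0. The part of these markers in the result was not tested. In such bulk samples, fewer cells of a type and less RNA per cell cannot be told apart.

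The other alpha chains that pair with Itgb1 differed little. Itga4 (ENSMUSG00000027009, chromosome 2) had 208 and 233 CPM in miR-99 KD, against 198 and 211 in Scr. The ranges overlap, with a log2 difference of 0.11 ± 0.14 (SE) and an edgeR adjusted p of 0.724. Itga5 (ENSMUSG00000000555, chromosome 15) had 67.2 and 73.8 CPM in miR-99 KD, against 65.7 and 89.8 in Scr. Both miR-99 KD libraries lay between the Scr libraries. Its log2 difference was -0.14 ± 0.20 (SE), with an edgeR adjusted p of 0.761, and turned to 0.09 without Scr 2.

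The shared beta chain Itgb1 (ENSMUSG00000025809, chromosome 8) had 466 and 507 CPM in miR-99 KD, against 424 and 474 in Scr. Each group spanned about as much as the groups differed. Their log2 difference was 0.12 ± 0.14 (SE), with an edgeR adjusted p of 0.715 and a DESeq2 adjusted p of 0.732.

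Levels can be compared between genes only per length, so counts were also expressed as TPM, divided by the length of the union of annotated exons and scaled to a fixed sum per library. On this scale Itgb1 was the highest of the 9, at 368 ± 39 TPM in miR-99 KD and 384 ± 49 in Scr (SD, n = 2 each). It ranked 390 among all gene rows by its mean over the 4 libraries. Selplg, Itgb2 and Cd44 came next, in an order that changed between libraries. Selplg had 123 and 79.4 TPM in miR-99 KD, against 161 and 159 in Scr. Itgb2 had 252 and 55.9 TPM in miR-99 KD, against 122 and 74.8 in Scr. Cd44 had 94.0 and 102 TPM in miR-99 KD, against 78.2 and 86.5 in Scr. Selplg was thus the highest of these 3 in both Scr libraries, Itgb2 in miR-99 KD 1 and Cd44 in miR-99 KD 2. When the longest transcript replaced the union of exons, Selplg stood at 113 TPM in miR-99 KD 2, above Cd44 at 94.5. Itga4 at a mean of 49.9 TPM over the 4 libraries and Itga5 at 49.7 were not separated beyond their spread on this scale. By the longest transcript Itga4 was higher in each library, at 49.3 and 58.4 TPM in miR-99 KD and 52.3 and 59.0 in Scr. Itga5 then had 35.3 and 40.9 TPM in miR-99 KD and 38.5 and 55.6 in Scr. Itgal, at 19.9 by the union of exons, was lower than Cxcr4 in every library. By the longest transcript Itgal was the higher in Scr 2, at 23.4 TPM against 19.6.

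Cxcr4 and Itga6 were also ordered differently in the groups. In miR-99 KD Itga6 had 15.0 and 14.8 TPM, below Cxcr4 at 35.0 and 39.3. In Scr Itga6 had 39.4 and 40.4 TPM, above Cxcr4 at 29.4 and 25.8. The same order held in each library when the longest transcript replaced the union of exons. That length raised the TPM of Itga6 to 24.4 and 23.7 in miR-99 KD and 63.4 and 64.2 in Scr.

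Among the 3 alpha chains that pair with Itgb1, Itga6 made up 15.0% and 12.8% of the summed TPM in miR-99 KD, against 29.9% and 25.2% in Scr. Itga4 made up 44.3% and 46.0% in miR-99 KD, against 36.1% and 33.9% in Scr. Itgb1 TPM was 3.41 and 3.42 times the sum of the 3 chains in miR-99 KD, against 2.65 and 2.61 times in Scr. By the longest transcript Itga6 made up 22.4% and 19.3% in miR-99 KD, against 41.1% and 35.9% in Scr. The level of the share therefore depends on the length chosen, while its lower value in both miR-99 KD libraries does not. Itgb4, the other beta chain that pairs with Itga6, was at 0.45 and 0.43 TPM in miR-99 KD, against 1.32 and 0.92 in Scr.

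**Figure D2:**
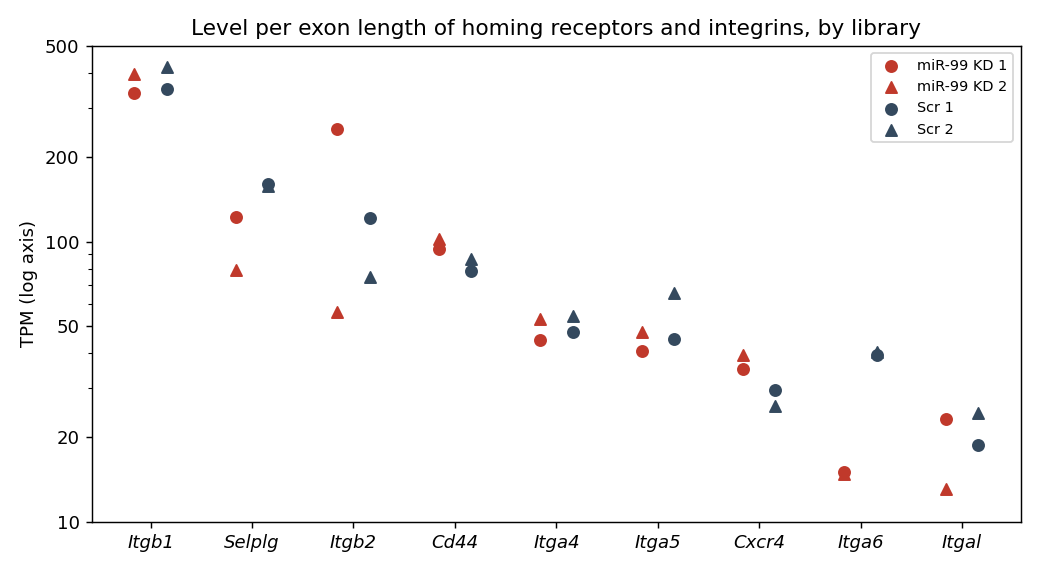
TPM by the union of exons (vertical log axis) of the 9 genes in each library, ordered by their mean over the 4 libraries, with miR-99 KD in red left of Scr in dark blue. Itgb1 was highest in every library, and Itga6 stood near 15 TPM in miR-99 KD, against about 40 in Scr.

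The LFA-1 chains differed more between the 2 miR-99 KD libraries than between the group means. Itgb2 (ENSMUSG00000000290, chromosome 10) had 258 and 53.5 CPM in miR-99 KD, against 110 and 63.4 in Scr. Both the highest and the lowest value belonged to miR-99 KD. The log2 difference was 0.84 ± 0.73 (SE), with an edgeR adjusted p of 0.602. It turned to -0.70 once miR-99 KD 1 was left out, with an edgeR adjusted p of 0.188. It was 1.57 once miR-99 KD 2 was left out, and Itgb2 was then called higher by edgeR (adjusted p 0.0404) and by DESeq2 (2.4e-06).

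Itgal (ENSMUSG00000030830, chromosome 7) had 51.3 and 27 CPM in miR-99 KD, against 36.6 and 44.7 in Scr. Here too the miR-99 KD libraries held the highest and the lowest value. The log2 difference was -0.05 ± 0.34 (SE), with an edgeR adjusted p of 0.952. It was 0.34 without miR-99 KD 2 and 0.09 without Scr 2. The TPM of Itgb2 was 10.8 and 4.26 times that of Itgal in miR-99 KD, against 6.49 and 3.05 times in Scr.

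Neutrophils carry much Itgb2, and neutrophil granule genes were uneven across the libraries. The summed level of 12 neutrophil markers was 29633 and 5268 CPM in miR-99 KD, against 8434 and 6226 in Scr. Each of the 12 peaked in miR-99 KD 1, and none was at 0. Itgb2 ranked the 4 libraries in the same order as this sum, and so did Itgam, its partner in the myeloid integrin Mac-1, and Itgb2l, a gene related to Itgb2. Of all genes tested, 4.52% did so. Itgb2 was the only 1 of the 9 genes in this order, and Itgal was not in it. Itgam was the only 1 of the 10 other alpha chains tested, or 10%. Itgb2l was the only 1 of the 6 other beta chains tested, or 16.7%. Of the 12 neutrophil markers themselves, 5 did so, or 41.7%. Itgam had 127 and 15.9 CPM in miR-99 KD, against 46.2 and 30.3 in Scr. Itgb2l had 174 and 15.1 CPM in miR-99 KD, against 41.3 and 22.9 in Scr. The part of neutrophil RNA in the levels of Itgb2 was not tested.

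Other blood cells also use LFA-1. Each of the 10 B cell markers peaked in miR-99 KD 1. The summed level of 10 monocyte and macrophage markers was 4155 and 884 CPM in miR-99 KD, against 1619 and 636 in Scr. Of 10 T and NK cell markers only 4 passed the filter, and Ncr1 was at 0 in all 4 libraries. The summed level of those 4 was 163 and 125 CPM in miR-99 KD, against 222 and 229 in Scr. Their part in the levels of Itgal and Itgb2 was not tested.

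**Figure D3:**
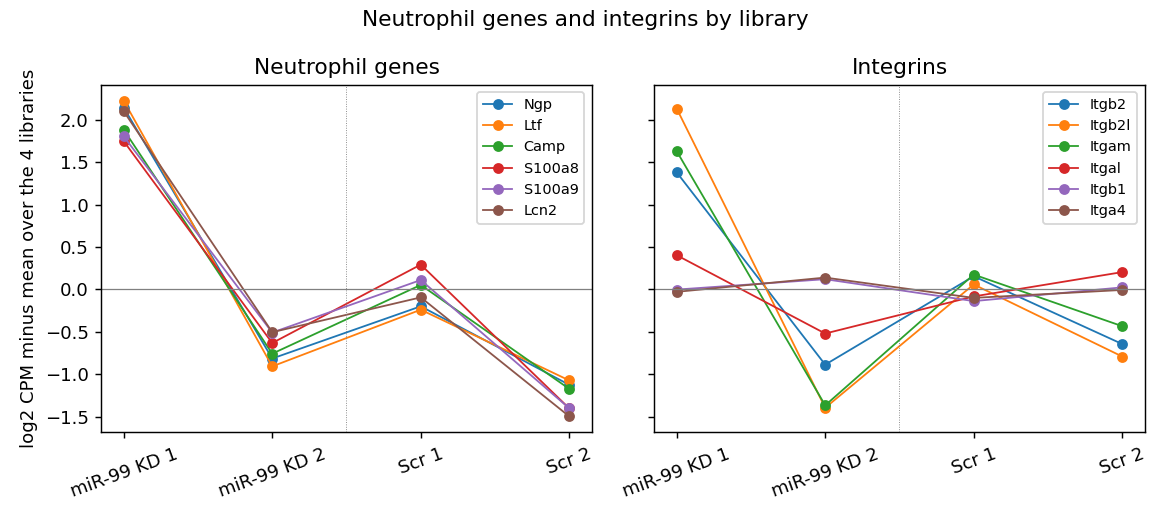
log2 CPM minus the mean over the 4 libraries (vertical axis) by library, for 6 neutrophil genes (left) and 6 integrin genes (right), with lines joining the values of 1 gene. Itgb2, Itgb2l and Itgam peaked in miR-99 KD 1 as the neutrophil genes did, while Itgb1 and Itga4 stayed near 0 in every library.

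Cd44 (ENSMUSG00000005087, chromosome 2) was higher in both miR-99 KD libraries. It had 213 and 217 CPM in miR-99 KD, against 158 and 163 in Scr. The libraries of a group were nearly equal, and the groups did not overlap. Means were 215 ± 2.6 CPM in miR-99 KD and 160 ± 3.6 in Scr (SD, n = 2 each). This gives a log2 difference of 0.43 ± 0.12 (SE), a fold of 1.34, with an edgeR adjusted p of 0.250. DESeq2 called it higher at an adjusted p of 0.0484, and lost the call without each library in turn, at adjusted p from 0.113 without miR-99 KD 1 to 0.999 without Scr 2. In edgeR fits that left out a library the log2 difference was 0.38 to 0.44, and with total-count scaling it was 0.34. Of all genes tested, 16.4% had a log2 difference as high or higher.

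Selplg (ENSMUSG00000048163, chromosome 5) was lower in both miR-99 KD libraries, by unequal amounts. It had 175 and 107 CPM in miR-99 KD, against 204 and 188 in Scr. The 2 miR-99 KD libraries differed from each other more than the nearer one differed from Scr. The log2 difference was -0.48 ± 0.26 (SE), with an edgeR adjusted p of 0.416 and a DESeq2 adjusted p of 0.319. Leaving out miR-99 KD 1 gave -0.88, called by edgeR (adjusted p 0.0312) and by DESeq2 (0.000238). Without miR-99 KD 2 it was -0.16, with an edgeR adjusted p of 0.663.

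Around these receptors, 8 lists of related genes were counted. Together they held 145 genes, of which 123 were tested. At an unadjusted edgeR p under 0.05, 21 of the 123 were lower and 6 higher in miR-99 KD, or 22% against 15.6% of all genes. DESeq2 called 17 lower and 1 higher, or 14.6% against 5.85%. The share without overlap between groups was 48.8%, against 50.5%. Many of the 40 genes named here by rule were picked for the smallest edgeR p in their list. A count of calls among them therefore cannot be weighed against the 5.85% of all genes. DESeq2 called 16 of the 40 over all 4 libraries. It called 3 without Scr 1, which were Itga6, Cd24a and Cd34, and 0 without Scr 2, while edgeR called 0 over all 4 libraries.

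Of 14 other integrin alpha chains, 10 were tested. The miR-99 KD values lay below Scr without overlap in 5 and above in 1, or 50% and 10%, against 26% and 24.5% of all genes. DESeq2 called 1 of the 10, or 10% against 5.85% of all genes, and the median log2 difference was -0.67. Itga2b, the alpha chain of the platelet fibrinogen receptor, had 69.0 and 84.2 CPM in miR-99 KD, against 173 and 109 in Scr. DESeq2 called it lower at an adjusted p of 0.0250, and edgeR gave 0.250. Its log2 difference was -0.88 over all libraries and -0.54 without Scr 1. Itgav, a chain of the vitronectin receptors, had 20.6 and 22.3 CPM in miR-99 KD, against 33.0 and 25.7 in Scr, with an edgeR adjusted p of 0.372. Itga3, another laminin-binding chain, was nearly silent, with 0 and 0.23 CPM in miR-99 KD and 1.88 and 1.82 in Scr.

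Of 7 other beta chains, 6 were tested, 2 of them below without overlap and 0 above. The 33.3% below is near the 26% of all genes. Itgb5, a partner of Itgav, had 8.45 and 4.48 CPM in miR-99 KD, against 14.8 and 18.3 in Scr. Its log2 difference of -1.36 ± 0.38 (SE) had an adjusted p of 0.0365 by DESeq2 and 0.240 by edgeR. It was -0.97 without miR-99 KD 2. Itgb4 and Itgb6, which pair with Itga6 and Itgav, were below 3 CPM in every library. Platelet markers beside these chains summed to 215 and 233 CPM in miR-99 KD, against 347 and 248 in Scr, over 8 genes of which none was at 0, and their part was not tested.

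The proteins that switch integrins on and anchor them to actin went both ways. Of 18 tested of 21, the miR-99 KD values lay above Scr without overlap in 7 and below in 4, or 38.9% and 22.2%, against 24.5% and 26% of all genes. At an unadjusted edgeR p under 0.05, 3 were higher and 2 lower, or 16.7% and 11.1%, against 5.97% and 9.63% of all genes. The median log2 difference was -0.02. The parvins, which bind integrin-linked kinase, had opposite signs. Parvg had 127 and 81.0 CPM in miR-99 KD, against 168 and 217 in Scr, and DESeq2 called it lower at an adjusted p of 0.0273. Parvb had 3.03 and 3.99 CPM in miR-99 KD, against 0.96 and 1.27 in Scr, with a DESeq2 adjusted p of 0.114. Apbb1ip, the RIAM adaptor that brings talin to integrins, had 76.7 and 100.3 CPM in miR-99 KD, against 60.8 and 48.5 in Scr. Its adjusted p was 0.251 by edgeR and 0.0503 by DESeq2.

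Selp, the P-selectin that binds PSGL-1, had 48.8 and 26.4 CPM in miR-99 KD, against 79.2 and 77.4 in Scr. DESeq2 called it lower at an adjusted p of 0.0258, and edgeR gave 0.250. Its log2 difference was -1.06 ± 0.31 (SE) over all libraries. It grew to -1.57 once miR-99 KD 1 was dropped and shrank to -0.68 once miR-99 KD 2 was dropped. Dropping Scr 1 gave -1.06, and dropping Scr 2 gave -1.08. Of the DESeq2 fits that left out a library, only the fit lacking miR-99 KD 1 kept the call.

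Of all 18 selectin and selectin ligand genes, 5 lay above and 5 below without overlap, with a median log2 difference of 0.04. That is 27.8% each way, near the 24.5% above and 26% below of all genes. An unadjusted edgeR p under 0.05 was reached by 5, 3 higher and 2 lower, or 27.8% against 15.6% of all genes. DESeq2 called 3 of the 18, 1 higher and 2 lower, or 16.7% against 5.85% of all genes. Fut7, the fucosyltransferase that finishes selectin ligands such as PSGL-1, had 25.7 and 23.1 CPM in miR-99 KD, against 42.6 and 45.0 in Scr. DESeq2 called it lower at an adjusted p of 0.00431, and edgeR gave 0.213 with a log2 difference of -0.84 ± 0.17 (SE). Cd24a, a mucin-like surface protein that P-selectin can bind, had 720 and 798 CPM in miR-99 KD, against 555 and 389 in Scr. DESeq2 called it higher at an adjusted p of 0.0285, and edgeR gave 0.254. DESeq2 kept Cd24a without Scr 1, with a log2 difference of 0.95. It lost Cd24a when Scr 2 was left out (log2 difference 0.45, adjusted p 0.973) or miR-99 KD 2 (adjusted p 0.0634). It lost Fut7 without Scr 1, Scr 2 or miR-99 KD 2, while the log2 difference of Fut7 stayed between -0.92 and -0.77.

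Of 19 other chemokine receptors, 13 were tested. In 12 the groups overlapped, which left 7.69% without overlap, against 50.5% of all genes. An unadjusted edgeR p under 0.05 was reached by 0, against 15.6% of all genes. Only Ccr9, a homing receptor of thymus and gut at 0.95 and 1.54 CPM in miR-99 KD and 0.15 and 0.69 in Scr, did not overlap. Ccr2, a monocyte receptor, had 49.0 and 12.1 CPM in miR-99 KD, against 19.0 and 12.4 in Scr. Ccr1, found on monocytes and neutrophils, had 35.6 and 4.10 CPM in miR-99 KD, against 11.2 and 4.6 in Scr. Both ranked the libraries as the summed neutrophil markers did. In all, 7 of the 13 receptors did so, or 53.8% against 4.52% of all genes. Without miR-99 KD 1 the log2 difference of Ccr2 turned from 0.96 to -0.38 and that of Ccr1 from 1.33 to -0.94.

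Cxcr4 passes its signal through Gi proteins and Rac, and is damped by Rgs proteins, Grk kinases and arrestins. Of 28 genes of this pathway, 26 were tested. The miR-99 KD values lay below Scr without overlap in 11, or 42.3% against 26% of all genes, and above in 4. At an unadjusted edgeR p under 0.05, 6 were lower and 0 higher, or 23.1% and 0%, against 9.63% and 5.97% of all genes. The median log2 difference was -0.04. DESeq2 called 4, each lower, among them Rgs18, Elmo1 and Gng2, or 15.4% against 4.16% of all genes.

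Rgs18, a damper of Gi signals in blood cells, had 139 and 122 CPM in miR-99 KD, against 236 and 192 in Scr, with a DESeq2 adjusted p of 0.00624. Elmo1, which works with Dock2 to activate Rac, had 182 and 140 CPM in miR-99 KD, against 258 and 279 in Scr, with a DESeq2 adjusted p of 0.00782. Gng2, a G protein gamma chain, had 35.4 and 41.0 CPM in miR-99 KD, against 69.8 and 58.6 in Scr, with a DESeq2 adjusted p of 0.0130. Their edgeR adjusted p ran from 0.224 to 0.227. The DESeq2 call of each was lost without Scr 1 and without Scr 2, and that of Gng2 also without miR-99 KD 1.

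**Figure D4:**
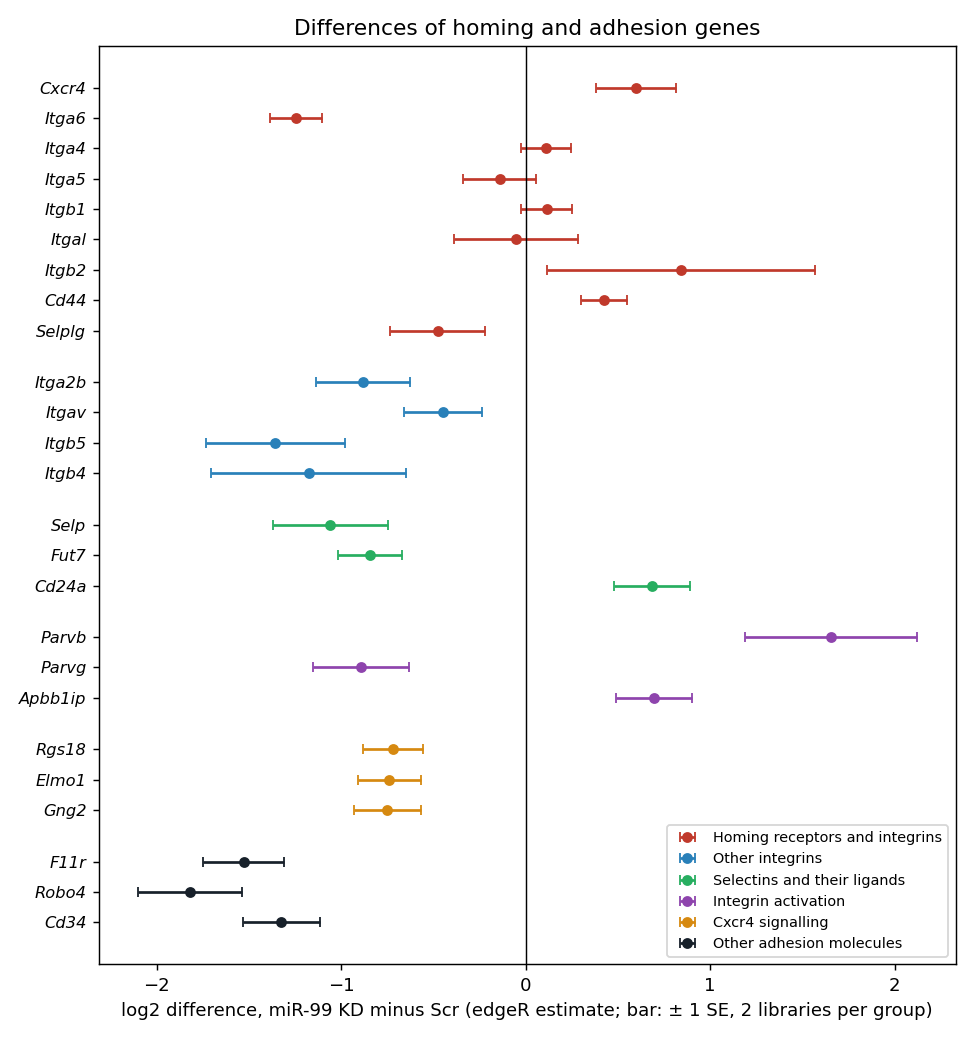
log2 difference, miR-99 KD minus Scr (horizontal axis), with its SE as bars, for the 9 homing receptors and integrins and for related genes, 2 libraries per group. Itga6, at -1.25, is the lowest of the 9, and Itgb2 has the widest error at 0.73.

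Other surface molecules by which stem and progenitor cells touch each other or vessel walls had a log2 difference below 0 in 16 of the 22 tested, of 23 in the list. Among the 22, the miR-99 KD values lay below Scr without overlap in 11, or 50% against 26% of all genes, and above in 1. DESeq2 called 7, each lower, or 31.8% against 4.16% of all genes. The same number was lower at an unadjusted edgeR p under 0.05, against 9.63% of all genes. The median log2 difference was -0.70. The stem cell markers given beside Itga6 were lower too, and their part in these levels was not tested.

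Cd34, a sialomucin of stem and progenitor cells, had 350.3 and 276 CPM in miR-99 KD, against 673 and 895 in Scr, with a DESeq2 adjusted p of 1.02e-06. F11r, the junctional adhesion molecule JAM-A, had 9.82 and 11.5 CPM in miR-99 KD, against 33.4 and 28.0 in Scr, with a DESeq2 adjusted p of 4.17e-06. Robo4, a receptor of endothelium and stem cells, had 3.45 and 4.56 CPM in miR-99 KD, against 13.8 and 14.4 in Scr, with a DESeq2 adjusted p of 9.46e-05. The edgeR adjusted p of each was 0.197. In all 3 genes the lower miR-99 KD values were separated from Scr by more than the spread within either group. DESeq2 still called Cd34 without Scr 1, and lost F11r and Robo4.

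**Figure D5:**
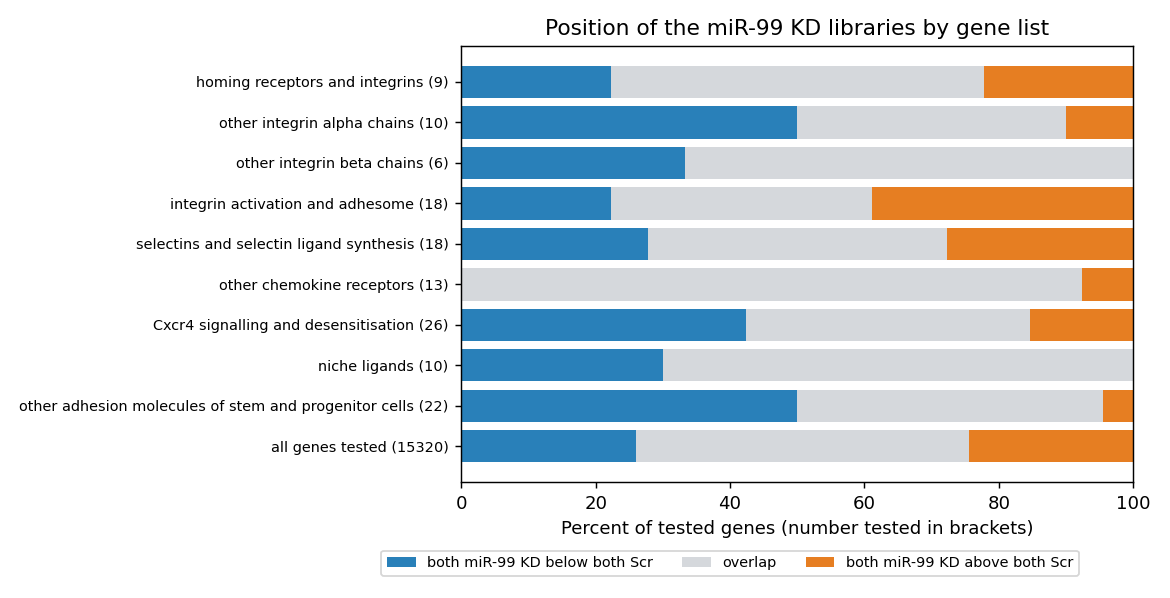
Share of tested genes (horizontal axis, percent) in which the miR-99 KD values lay below Scr, overlapped with Scr or lay above it, for the 9 genes, the 8 related lists and all genes tested. Other adhesion molecules and other integrin alpha chains had 50% below, against 26% of all genes.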

How the data were processed

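The authors deposited a raw count for each Ensembl gene in each library. RNA was taken up in Trizol LS and amplified by SMARTer, a PCR method for little RNA, per the labels' protocols. The submitters' processing notes name STAR, Picard, HTSeq, DESeq2 and build mm9. Versions, order, annotation release and strand setting were not given in the sources used here. Class rows of HTSeq and pasted totals, which name no gene, were left out. Together the class rows hold 36.9% to 42.5% of reads. One class holds reads with several alignments, so genes with near-identical copies are undercounted.

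Symbols matched 44585 of 45232 rows. Symbols, exon lengths, chromosomes and 3′ untranslated regions of at least 50 bases were read from GENCODE M21, whose build differs from mm9, so no gene coordinates are printed. The main test was edgeR 4.0.16 in R 4.3.3 (filterByExpr, TMM, quasi-likelihood, Benjamini-Hochberg at 0.05) over all genes, without a replicate block. SE values come from that fit. DESeq2 1.42.0 used the same genes and left the adjusted p of 2674 without a value. The tests were run on simulated counts with planted changes, of which both tools recovered a part, and DESeq2 made more false calls than edgeR. The simulated spread of each gene followed a trend over expression level, so the share of false calls in these data cannot be read from it. p-values measure only the spread between these libraries, and PCR copies that were not removed are counted.

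The 9 genes, the lists and the tests were chosen with earlier results of these data known. Named genes are the 9, up to 3 per related list with the smallest edgeR p, Kit, Ly6a, host transcripts of miR-99 and the 3 nearest to Cxcr4. Itgam, Itgb2l and Sele were added after their values were seen. Alternatives were DESeq2, RLE and total-count scaling, no filter, a filter at 10 CPM in 2 libraries, leaving out neutrophil, B cell, mitochondrial and globin genes, a replicate block and leaving out each library. The replicate numbers are not said to pair mice, and the deviations of same-numbered libraries correlated at 0.057 over 15320 genes. One gene of the related lists is not reported here.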

Additional observations from a re-analysis of the deposited data

How the results depend on the processing

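No cause of these changes was tested. The DESeq2 fits without a library were chosen after seeing the data. edgeR called 0 genes over 4 libraries, 1064 with no filter and 0 to 1013 without each library. DESeq2 called 896, and without each library 1598, 849, 124 and 25. Genes at an unadjusted p under 0.05 numbered 783 to 4342 without each library (3441, 2209, 1103 and 681 with DESeq2). Of the 9 genes, DESeq2 called 2 and edgeR with no filter 1, and 0 to 2 were called without each library by either tool. At an unadjusted p under 0.05 they numbered 1 to 6 without each library (1 to 5 with DESeq2). Without overlap they numbered 5 to 8 on leaving out each library, where 68.6% to 81.9% of all genes did not overlap. Genes of the related lists at an unadjusted p under 0.05 numbered 27 over 4 libraries, 49 with no filter and 13 to 58 on leaving out each library (12 to 54 with DESeq2).

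Directions turned only without a library. The log2 difference of Itga5 ran from -0.38 to 0.086 and turned without Scr 2 (0.10 with DESeq2). That of Itgb2 ran from -0.70 to 1.57 and turned without miR-99 KD 1 (-0.70 with DESeq2). That of Itgal ran from -0.59 to 0.34 and turned without miR-99 KD 2 (0.34 with DESeq2) and without Scr 2 (0.087, and 0.10 with DESeq2). Ccr2 ran from -0.38 to 1.64 and Ccr1 from -0.94 to 2.17, and both turned without miR-99 KD 1 (-0.37 and -0.94 with DESeq2). Cxcr4, Itga4, Itga6, Itgb1, Cd44 and Selplg kept their sign in all 15 alternatives. Of 36 pairs among the 9 genes, 34 kept their order of TPM by the longest transcript and 33 to 35 without each library. With the replicate block edgeR called 0 genes, and Itga6 stood at -1.25 with an adjusted p of 0.118. Scaling by totals alone moved the median log2 difference of all genes to -0.07, and genes at an unadjusted p under 0.05 were then 79.1% lower, against 61.7% in the main setting. The edgeR SE of the 9 log2 differences ran from 0.12 for Cd44 to 0.73 for Itgb2.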

Other observations

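Ligands that niche cells present to these receptors were also read in the sorted cells. Of 15 such genes 10 were tested, with 3 below Scr without overlap in miR-99 KD and 0 above. The 30% below is near the 26% of all genes. Icam1, the ligand of LFA-1, had 21.9 and 15.9 CPM in miR-99 KD, against 32.5 and 40.03 in Scr. DESeq2 called it lower at an adjusted p of 0.0280, and edgeR gave 0.231. Cxcl12, the ligand of Cxcr4, had 104 and 32.3 CPM in miR-99 KD, against 81.3 and 28.7 in Scr. Vcam1, the ligand of the Itga4 and Itgb1 pair, had 189 and 134 CPM in miR-99 KD, against 171 and 65.6 in Scr. For Cxcl12 and Vcam1 the libraries of a group differed more than the group means, and both were named after their values were seen. The laminin chains Lamc1 and Lama5 were low. Lamc1 had 9.17 and 3.77 CPM in miR-99 KD, against 12 and 10.2 in Scr, and Lama5 had 0.83 and 0 CPM in miR-99 KD, against 1.88 and 1.27 in Scr. Of 10 endothelial and stromal markers 9 were tested, and their summed level was 125 and 106 CPM in miR-99 KD, against 90.3 and 92.8 in Scr.

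Totals pasted below the gene rows carry other library names than the labels. The gene total of miR-99 KD 1 stands under the name Zip99a-2 and that of miR-99 KD 2 under Zip99a-1, while the total of Scr 1 stands under Scr-2. A total of 29793890 under the name Scr-1 equals that of none of the 4 libraries, and no such library was analysed here. Groups were taken from the labels, and the pasted names were not used.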
